A study of Homo sapiens with 2 samples.

Results

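Antisense long RNAs were described in HepG2, a human liver cancer line, as the genes whose symbol ends in -AS and a digit, by HGNC practice the name of a non-coding RNA read from the strand opposite to the gene named before it. The FPKM table (fragments per kilobase of transcript, scaled by library depth, a level per length) held 60448 genes, of which 1166 carried such a name and 748 had a value above 0. The antisense RNAs taken up were the 200 whose mean over the 2 libraries was at least 1 FPKM, so the measured levels chose them, and their levels are given as a description. One group was an SPRTN siRNA library and the other a library of a negative control siRNA, with 1 library in each. In both, HepG2 cells received 40 nM of siRNA by reverse transfection for 24 h and RNA was taken at 72 h. No other allele or agent is named for either group. SPRTN encodes a protease that digests proteins bound covalently to DNA, and the question is how expression differs once it is depleted. Because there are no replicates, no difference below has a replicate check, no p-value was computed, and the 95% intervals of ratios cover counting error only.

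An antisense RNA can lie opposite the exons of its sense gene, share only an intron with it, or start beside its promoter and run the other way. Some members of the class hold back or help the sense gene in cis, some act as sponges or scaffolds in trans, and many have no known task. RNAs that run away from promoters are usually short-lived, because the nuclear exosome, the trimming complex of the nucleus, degrades them unless they are spliced and polyadenylated. The libraries were made from RNA selected by oligo(dT), so the RNAs counted are mainly polyadenylated ones.

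SPRTN stood at 2.07 FPKM in the SPRTN siRNA library, against 7.81 FPKM in the control library, so the labels fit the targeted gene. The FPKM steps gave about 67100000 reads assigned to genes with SPRTN siRNA and 96400000 with the control siRNA. All 12 hepatocyte and HepG2 markers were measured, between 20.5 and 14226 FPKM in the mean of the libraries, and their sum was 48144 FPKM with SPRTN siRNA and 37862 FPKM in the control. Summed markers of fibroblasts came to 9.57 FPKM with SPRTN siRNA and 9.96 FPKM in the control, those of endothelium to 7.11 FPKM with SPRTN siRNA and 4.91 FPKM in the control, and those of blood to 4.55 FPKM with SPRTN siRNA and 3.86 FPKM in the control. The endothelial markers did not move together. The cadherin gene CDH5 had 2.74 FPKM with SPRTN siRNA and 0.439 FPKM in the control. PECAM1 had 2.92 FPKM with SPRTN siRNA and 2.47 FPKM in the control. TIE1 was lower, at 1.07 FPKM with SPRTN siRNA and 1.84 FPKM in the control. PTPRC, HBB, COL3A1 and DCN, which define blood cells and fibroblasts, were listed at 0 in both libraries. The nuclear long RNAs stood apart, with MALAT1 at 110 FPKM in the SPRTN siRNA library and 43.2 FPKM in the control, and NEAT1 at 74.5 FPKM with SPRTN siRNA and 29.3 FPKM in the control. Their log2 ratios were 1.33 and 1.32, and whether the libraries differ in nuclear RNA content was not tested.

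FBXL19-AS1 differed most among the 200 antisense RNAs. It had 9.40 FPKM in the SPRTN siRNA library, against 2.59 FPKM in the control library, from 2491 reads with SPRTN siRNA and 985 in the control. The plain ratio was 3.64 (95% interval 3.38 to 3.92), and on log2(FPKM + 1), the scale of every log2 ratio given here as SPRTN siRNA minus control, it was 1.54. FBXL19-AS1 (ENSG00000260852) is a single-exon RNA of 3951 bases on the minus strand of chromosome 16, from 30919319 to 30923269 in GRCh38. Its sense gene FBXL19, an F-box protein that binds CpG-rich DNA, starts 214 bases away from its start and runs in the other direction, so the first stretches of both genes overlap. FBXL19 stood at 18.1164 FPKM with SPRTN siRNA and 18.1317 FPKM in the control, a ratio of 0.999 (0.953 to 1.05). The antisense RNA thus differed 3.64-fold between the libraries while the sense gene was level within counting error. Only 98 bases, or 2.48% of the annotated exon bases of FBXL19-AS1, lie in exons of another gene. Its start window is shown as the sequence at which the most different antisense RNA begins, read on its own strand at chr16:30923220-30923519 (RefSeq, GRCh38.p14), with the first 50 transcribed bases in capitals.
FBXL19-AS1: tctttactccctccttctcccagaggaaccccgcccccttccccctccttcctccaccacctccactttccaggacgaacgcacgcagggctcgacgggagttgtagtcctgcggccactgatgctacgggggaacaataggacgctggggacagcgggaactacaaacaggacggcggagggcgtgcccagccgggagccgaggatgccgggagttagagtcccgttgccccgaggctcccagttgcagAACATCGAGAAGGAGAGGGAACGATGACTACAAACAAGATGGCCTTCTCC

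ID2-AS1 was the other antisense RNA that differed at least 2-fold on log2(FPKM + 1). It had 3.51 FPKM in the SPRTN siRNA library, against 1.13 FPKM in the control library (143 reads with SPRTN siRNA and 66 in the control), a ratio of 3.12 (2.31 to 4.24) and a log2 ratio of 1.08. It lies on chromosome 2 from 8666636 to 8681863 on the minus strand and shares 38 exon bases with ID2. ID2, which encodes an inhibitor of helix-loop-helix transcription factors, had 157 FPKM with SPRTN siRNA and 143 FPKM in the control, a ratio of 1.09 (1.07 to 1.12). The sense gene was thus far more abundant than its antisense RNA and differed much less. On that scale 2 of 200 antisense RNAs were at least 2-fold higher, where all 13203 genes at a mean of at least 1 FPKM gave 1.51%. With a pseudocount of 0.1 FPKM the count was 5 of 200, against 2.79% of all genes, since DBH-AS1, TNRC6C-AS1 and ZFPM2-AS1 pass 2-fold without the larger pseudocount. At least 2-fold lower were 0 of 200 with either pseudocount, against 0.788% of all genes on log2(FPKM + 1). These shares lie near those of all genes, so the count says nothing particular of the class.

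**Figure D1:**
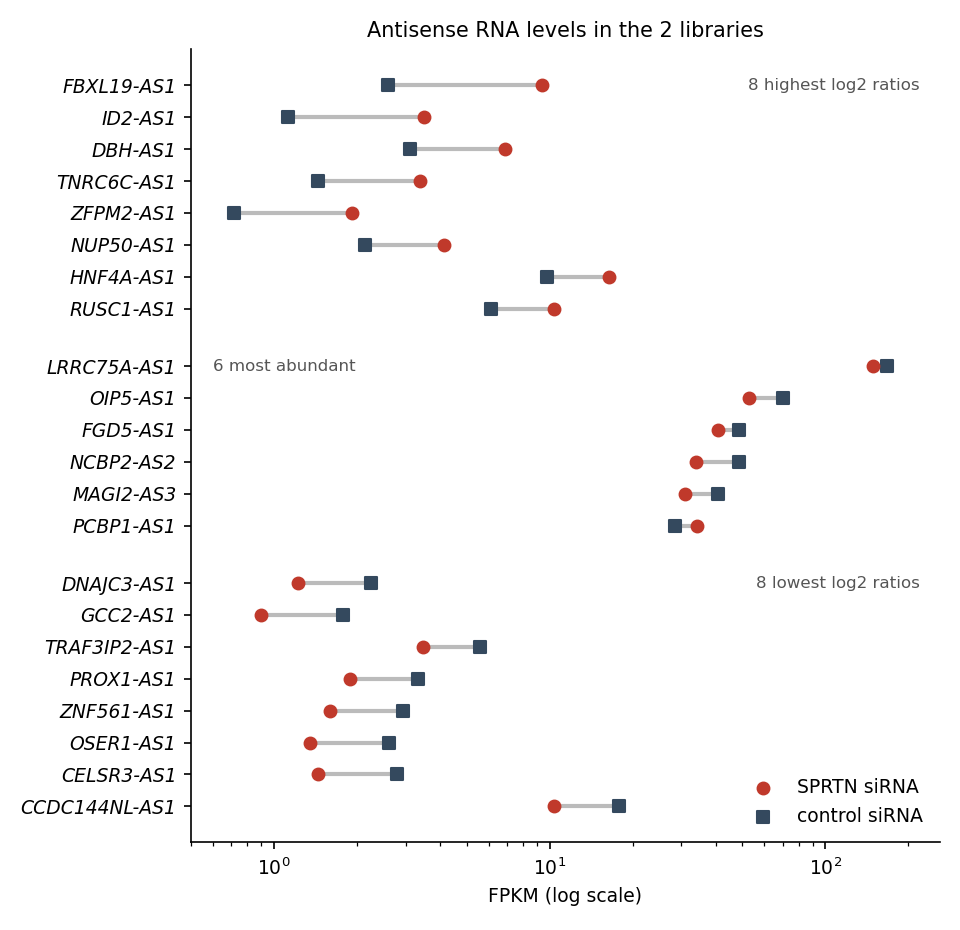
FPKM (log axis) of 22 antisense RNAs in the SPRTN siRNA library (red circles) and the control siRNA library (dark squares), 1 library each, for the 8 highest log2 ratios, the 6 most abundant RNAs and the 8 lowest log2 ratios. FBXL19-AS1 has the widest gap, at 9.40 against 2.59 FPKM, and the abundant RNAs sit close together, 5 of the 6 with the SPRTN siRNA value on the left.

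Below these, 6 RNAs completed the 8 highest log2 ratios. DBH-AS1 had 6.87 FPKM in the SPRTN siRNA library, against 3.13 FPKM in the control, a ratio of 2.196 (1.99 to 2.43). Its sense gene DBH, which makes noradrenaline from dopamine, was also higher, at 3.90 FPKM with SPRTN siRNA and 2.11 FPKM in the control (ratio 1.85, 1.63 to 2.09). DBH-AS1 was the only one of the 8 whose sense gene passed a log2 ratio of 0.5, and 5.52% of its exon bases lie in exons of DBH. TNRC6C-AS1 had 3.39 FPKM with SPRTN siRNA, against 1.45 FPKM in the control (2.34-fold, 2.07 to 2.64), while TNRC6C, a scaffold of microRNA silencing, had 5.45 FPKM with SPRTN siRNA and 5.37 FPKM in the control. Of the exon bases of TNRC6C-AS1, 63.2% lie in exons of other genes. The labels' protocol names no step that marks the strand, and the use of strand in counting is not stated, so some of its reads may be theirs. ZFPM2-AS1 had 1.92 FPKM with SPRTN siRNA, against 0.717 FPKM in the control (80 reads with SPRTN siRNA and 43 in the control), a ratio of 2.68 (1.82 to 3.97). Its sense gene ZFPM2, a cofactor of GATA factors, was near 0 in both, at 0.0151 FPKM with SPRTN siRNA and 0.0366 FPKM in the control.

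HNF4A-AS1 is opposite a gene that sets hepatocyte identity. The RNA had 16.4 FPKM in the SPRTN siRNA library, against 9.74 FPKM in the control (1.68-fold, 1.49 to 1.89), and its log2 ratio was 0.69. HNF4A itself had 151 FPKM with SPRTN siRNA and 168 FPKM in the control, a ratio of 0.903 (0.889 to 0.917). The antisense RNA was higher and the sense gene lower with SPRTN siRNA, and the annotated exons of the pair share no base. RUSC1-AS1 had 10.4 FPKM with SPRTN siRNA, against 6.14 FPKM in the control (1.69-fold, 1.54 to 1.86). RUSC1, an adaptor protein gene, had 18.2 FPKM with SPRTN siRNA and 19.5 FPKM in the control.

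NUP50-AS1 and NUP50, a nuclear pore component, are transcribed away from each other, and they also went opposite ways. NUP50-AS1 had 4.15 FPKM in the SPRTN siRNA library, against 2.13 FPKM in the control (1.95-fold, 1.64 to 2.32). NUP50 had 68.8 FPKM with SPRTN siRNA, against 88.1 FPKM in the control, a ratio of 0.781 (0.755 to 0.807). The DNA just upstream of NUP50 is shown because NUP50-AS1 starts within it, on the strand of NUP50 at chr22:45163675-45163840 (RefSeq, GRCh38.p14), with the 107 bases that are transcribed on the other strand as NUP50-AS1 in capitals.
NUP50: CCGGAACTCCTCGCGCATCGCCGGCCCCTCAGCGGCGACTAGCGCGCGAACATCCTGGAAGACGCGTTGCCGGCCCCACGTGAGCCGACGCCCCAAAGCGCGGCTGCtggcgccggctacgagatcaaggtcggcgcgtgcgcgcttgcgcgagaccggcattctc

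At the other end of the order stood CCDC144NL-AS1. It had 10.4 FPKM in the SPRTN siRNA library, against 17.8 FPKM in the control library (808 reads with SPRTN siRNA and 1990 in the control), 1.71-fold lower (1.58 to 1.86), and its log2 ratio was -0.72. CCDC144NL, whose gene body it overlaps on the other strand, was lower as well, at 3.44 FPKM with SPRTN siRNA and 6.12 FPKM in the control (1.78-fold lower, 1.55 to 2.04). This was the only pair among the 8 lowest whose sense gene had a log2 ratio under -0.5. The other RNAs of the 8 had levels of 0.896 to 3.46 FPKM with SPRTN siRNA and 1.78 to 5.61 FPKM in the control.

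CELSR3-AS1, beside a cadherin of planar cell polarity, was 1.94-fold lower, but from 19 reads with SPRTN siRNA and 53 in the control, and its interval ran from 1.13 to 3.47. OSER1-AS1 was 1.94-fold lower (1.55 to 2.44), at 1.35 FPKM with SPRTN siRNA and 2.62 FPKM in the control. GCC2-AS1, opposite a Golgi golgin, was 1.98-fold lower (1.33 to 3.03), at 0.896 FPKM with SPRTN siRNA and 1.78 FPKM in the control. ZNF561-AS1, PROX1-AS1, TRAF3IP2-AS1 and DNAJC3-AS1 had log2 ratios of -0.60, -0.59, -0.57 and -0.55. Of these, ZNF561-AS1 has 54.1% of its exon bases in exons of other genes. The sense genes of these 7 RNAs had log2 ratios between -0.17 (PROX1, a homeobox factor of liver and lymphatic cells) and -0.01 (ZNF561). Thus 7 of the 8 lowest antisense RNAs stood beside a sense gene within 0.5 of 0. Of all 170 sense genes at 1 FPKM or more, 87.1% lay in that range. The count therefore says nothing particular of these pairs.

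Over all 200 antisense RNAs the log2 ratios centred on 0. Their median was 0.01, with values of -0.01 under median of ratios scaling and 0.06 after centring on the median gene. Above 0 were 103 and below 0 were 97, and 176 (88.0%) lay within 0.5 of 0, against 84.3% of all genes. The standard deviation over the RNAs was 0.34, against 0.39 over all genes. The median was -0.05 for all genes, -0.06 for protein-coding genes, 0.10 for 345 long intergenic RNA genes and 0.10 for 310 genes of the annotated type antisense that carry no -AS name. The median of the named antisense RNAs thus lay between that of the coding genes and those of the long intergenic and unnamed antisense sets. The long intergenic set is not separate, since it holds 26 of the 200 named antisense RNAs. The differences between these medians were not tested. At a 1.5-fold size rule 9 antisense RNAs were higher and 5 lower, which is 4.50% and 2.50%, where all genes gave 5.04% and 5.62%.

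Counting intervals excluded equality for many of these RNAs. They lay above a ratio of 1 for 57 (28.6%) and below it for 60 (30.2%) of the 199 RNAs with an interval, against 31.5% and 44.3% of all genes, and they held 1 for 82. Reads per RNA ran from 19 to 8076 with SPRTN siRNA, with a median of 251, and from 38 to 13093 in the control, with a median of 367. By level, the 64 RNAs under 2 FPKM had a median log2 ratio of -0.02, the 77 between 2 and 5 FPKM had 0.03, and the 59 at 5 FPKM or more had -0.00. Genes of all kinds in these ranges had medians of 0.05, -0.02 and -0.07.

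**Figure D2:**
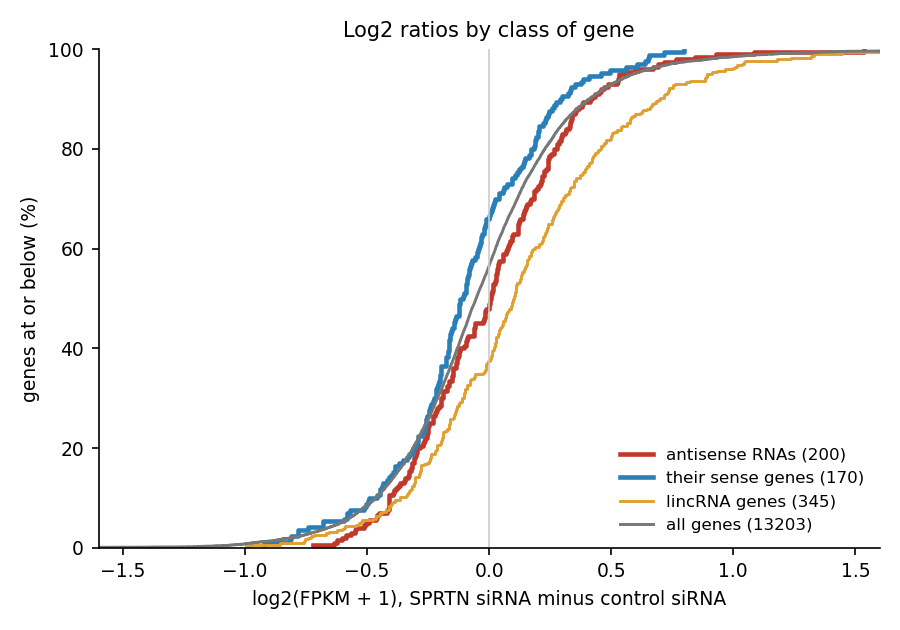
Share of genes (percent) at or below each log2 ratio of FPKM + 1, SPRTN siRNA minus control siRNA, for the 200 antisense RNAs, their 170 sense genes at 1 FPKM or more, 345 long intergenic RNA genes and all 13203 genes; the axis stops at 1.6 on either side. The antisense curve crosses 0 near its middle (median 0.01), the sense curve lies to its left (median -0.11) and the intergenic RNA curve to its right (median 0.10). Of the intergenic RNA genes, 26 are also among the 200 antisense RNAs.

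Most antisense RNAs were scarce. Their mean level over the libraries ran from 1.01 to 158 FPKM with a median of 2.81, and 59 reached 5 FPKM, 25 reached 10 and 9 reached 20. Together the 200 RNAs took 0.147% of the reads with SPRTN siRNA and 0.151% in the control. LRRC75A-AS1, whose introns hold the small nucleolar RNAs SNORD49A, SNORD49B and SNORD65, was the most abundant. It had 149 FPKM in the SPRTN siRNA library, against 168 FPKM in the control, a log2 ratio of -0.17. OIP5-AS1, a cytoplasmic RNA known to bind the protein HuR, had 52.8 FPKM with SPRTN siRNA, against 70.5 FPKM in the control (1.34-fold lower, 1.29 to 1.38). OIP5, a centromere protein gene, was lower too, at 8.05 FPKM with SPRTN siRNA and 12.5 FPKM in the control.

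Among the next in abundance, FGD5-AS1 had 40.9 FPKM with SPRTN siRNA and 48.8 FPKM in the control. MAGI2-AS3 had 30.9 FPKM with SPRTN siRNA and 40.9 FPKM in the control (1.33-fold lower, 1.25 to 1.402). NCBP2-AS2, which the annotation classes as protein-coding despite its name, had 34.0 FPKM with SPRTN siRNA and 48.6 FPKM in the control (1.43-fold lower, 1.36 to 1.51). Its sense gene NCBP2, the small subunit of the nuclear cap-binding complex, went the other way, at 74.4 FPKM with SPRTN siRNA and 62.7 FPKM in the control, although the 2 start sites lie 26 bases apart. PCBP1-AS1 was the only one of the 6 most abundant that was higher, at 34.3 FPKM with SPRTN siRNA and 28.4 FPKM in the control (1.21-fold, 1.13 to 1.29). PCBP1, a poly(C)-binding protein gene, had 71.7 FPKM with SPRTN siRNA, against 103 FPKM in the control.

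Other antisense RNAs picked for roles known from other work had log2 ratios within 0.5 of 0. EPB41L4A-AS1, which holds SNORA13, had 9.03 FPKM with SPRTN siRNA and 8.85 FPKM in the control. ZEB1-AS1, beside a repressor of epithelial genes, had 5.80 FPKM with SPRTN siRNA and 4.27 FPKM in the control (1.36-fold, 1.15 to 1.61). FOXD2-AS1 had a log2 ratio of 0.24 and MCM3AP-AS1 one of 0.09. In all, 8 of the antisense RNAs hold an annotated small RNA on their strand, and their median log2 ratio was -0.07. By structure, the 15 with a single annotated exon had a median of -0.06, the 73 with 2 or 3 exons 0.03 and the 111 with more 0.00. FBXL19-AS1 belongs to the single-exon ones, of which 6 were above 0.

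A sense gene was found by name for 197 of the 200 antisense RNAs. The exceptions were RPARP-AS1, HOXA-AS2 and JHDM1D-AS1. The 197 RNAs name 193 genes, all protein-coding, of which 170 reached a mean of 1 FPKM and 23 did not. The sense genes' median level was 20.5 FPKM, and in the pairs with a sense value above 0 the sense gene had a median of 4.48 times the FPKM of its antisense RNA. The antisense RNA exceeded the sense gene in 46 of 196 pairs. The widest excess was that of DLGAP1-AS1, at 8.82 FPKM with SPRTN siRNA and 11.1 FPKM in the control, where DLGAP1, a synaptic scaffold gene, was at 0.00539 FPKM with SPRTN siRNA and 0.0112 FPKM in the control. FGD5-AS1, LRRC75A-AS1 and DLGAP1-AS2 were likewise the abundant partner, beside sense genes at 0.0862, 0.366 and 0.00539 FPKM with SPRTN siRNA and 0.0566, 0.350 and 0.0112 FPKM in the control. IDH1-AS1 was at the other end, at 1.44 FPKM with SPRTN siRNA and 2.07 FPKM in the control, beside IDH1, the cytosolic isocitrate dehydrogenase, at 594 FPKM with SPRTN siRNA and 456 FPKM in the control.

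**Figure D3:**
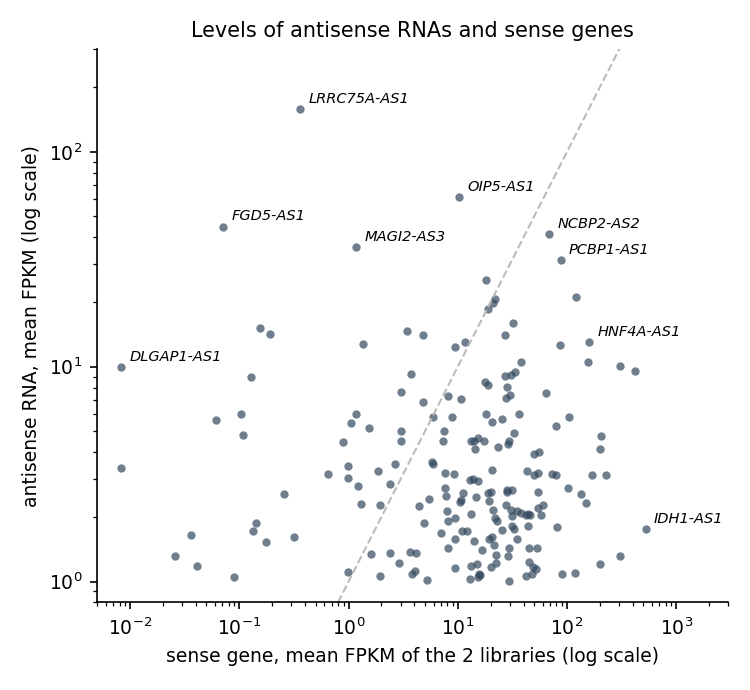
Mean FPKM over the 2 libraries of each antisense RNA (vertical, log axis) against that of its sense gene (horizontal, log axis) for 196 pairs with a sense value above 0; the dashed line marks equal levels. Most points lie right of the line, and 46 lie left of it, LRRC75A-AS1, FGD5-AS1, OIP5-AS1 and MAGI2-AS3 among them.

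The sense genes as a class were a little lower with SPRTN siRNA. Of the 170 at 1 FPKM or more, 113 had a log2 ratio below 0 and 57 above, their median was -0.11 (-0.06 after centring on the median gene), and 0 were at least 2-fold higher or lower on log2(FPKM + 1), where all genes gave 1.51% and 0.788%. Below 0 were thus 66.5% of the sense genes, against 56.6% of all genes and 58.3% of protein-coding genes. With a pseudocount of 0.1 FPKM 1 sense gene, ST20, was at least 2-fold higher. SUCLG2, a subunit of succinyl-CoA ligase in the citric acid cycle, was lowest, at 23.8 FPKM in the SPRTN siRNA library and 46.0 FPKM in the control, a log2 ratio of -0.92. RNASEH1, which digests the RNA of RNA-DNA hybrids, followed at 22.0 FPKM with SPRTN siRNA and 42.4 FPKM in the control. The antisense RNAs of both were level. SUCLG2-AS1 had 1.601 FPKM with SPRTN siRNA and 1.55 FPKM in the control, and RNASEH1-AS1 had 15.78 FPKM with SPRTN siRNA and 15.99 FPKM in the control. The SUCLG2 start region, on its own strand at chr3:67654615-67654862 (RefSeq, GRCh38.p14), is shown because it runs up to the start of the lowest sense gene and holds the start of its level antisense RNA, with the 166 bases transcribed on the other strand as SUCLG2-AS1 in capitals; the annotated starts lie 85 bases apart.
SUCLG2: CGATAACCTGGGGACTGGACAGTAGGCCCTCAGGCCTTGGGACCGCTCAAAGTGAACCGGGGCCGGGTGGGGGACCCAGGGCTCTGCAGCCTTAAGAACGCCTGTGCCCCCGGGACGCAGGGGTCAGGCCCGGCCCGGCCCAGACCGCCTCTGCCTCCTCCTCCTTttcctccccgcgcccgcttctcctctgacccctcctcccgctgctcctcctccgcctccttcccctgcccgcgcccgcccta

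The sense gene farthest above 0 was ST20, at 1.83 FPKM with SPRTN siRNA and 0.629 FPKM in the control (log2 ratio 0.80), while ST20-AS1 had 2.84 FPKM with SPRTN siRNA and 2.75 FPKM in the control. TMEM147, a membrane protein gene, was next at 0.71, with TMEM147-AS1 at 0.07. Then came DBH, described above, and UBL7 at 0.65, whose antisense RNA was at -0.06. Of these 4 sense genes, DBH alone had an antisense RNA past 0.5.

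Set pair by pair, antisense and sense ratios were only loosely related. Both partners reached 1 FPKM in 172 pairs. Their log2 ratios had the same sign in 102 (59.3%), and in 94 (54.7%) after centring on the median gene. Both were higher in 37 pairs, both lower in 65, the antisense RNA higher with the sense gene lower in 49, and the reverse in 21. Across pairs, which share both libraries and whose partners can share reads, Pearson's r was 0.19 and Spearman's rho 0.17. The pairs that pulled farthest apart with the antisense RNA on top were FBXL19-AS1, NUP50-AS1, SEMA3B-AS1 and DICER1-AS1. SEMA3B-AS1 had 3.84 FPKM with SPRTN siRNA and 2.45 FPKM in the control, while SEMA3B, a secreted semaphorin gene, had 136 FPKM with SPRTN siRNA and 203 FPKM in the control. DICER1-AS1 had 1.48 FPKM with SPRTN siRNA and 1.16 FPKM in the control, while DICER1, the enzyme that cuts microRNA precursors, had 21.1 FPKM with SPRTN siRNA and 37.0 FPKM in the control. With the sense gene on top the farthest were LENG8-AS1, ST20-AS1, NCBP2-AS2 and IDH1-AS1, of which LENG8-AS1 had 2.10 FPKM with SPRTN siRNA and 3.12 FPKM in the control, beside LENG8 at 64.1 FPKM with SPRTN siRNA and 45.2 FPKM in the control.

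Genome arrangement, taken from the GENCODE 29 annotation, divided the pairs in 3 main kinds. In 43 pairs the partners were divergent, meaning on opposite strands without overlap and with starts within 1 kb, a median of 111 bases apart. Their antisense RNAs had a median log2 ratio of -0.12, with 15 above 0. In 114 pairs exons of the partners overlapped, and the antisense median was 0.01, with 61 above 0. In 36 pairs the gene bodies overlapped with no exon base in common, and the antisense median was 0.10, with 21 above 0. The sense medians were -0.08, -0.12 and -0.02 in the same order.

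Signs matched in 23 of 41 divergent pairs with both partners at 1 FPKM or more (r -0.12), in 59 of 101 pairs with overlapping exons (r 0.23) and in 20 of 28 pairs whose gene bodies overlapped only (r 0.47). The part of shared reads in these values was not tested. Of the 199 annotated RNAs, 59 share no exon base with any other gene, 122 share under 10% and 6 over 50%. The 122 had a median log2 ratio of 0.03. Both RNAs past 2-fold on log2(FPKM + 1) are among them.

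**Figure D4:**
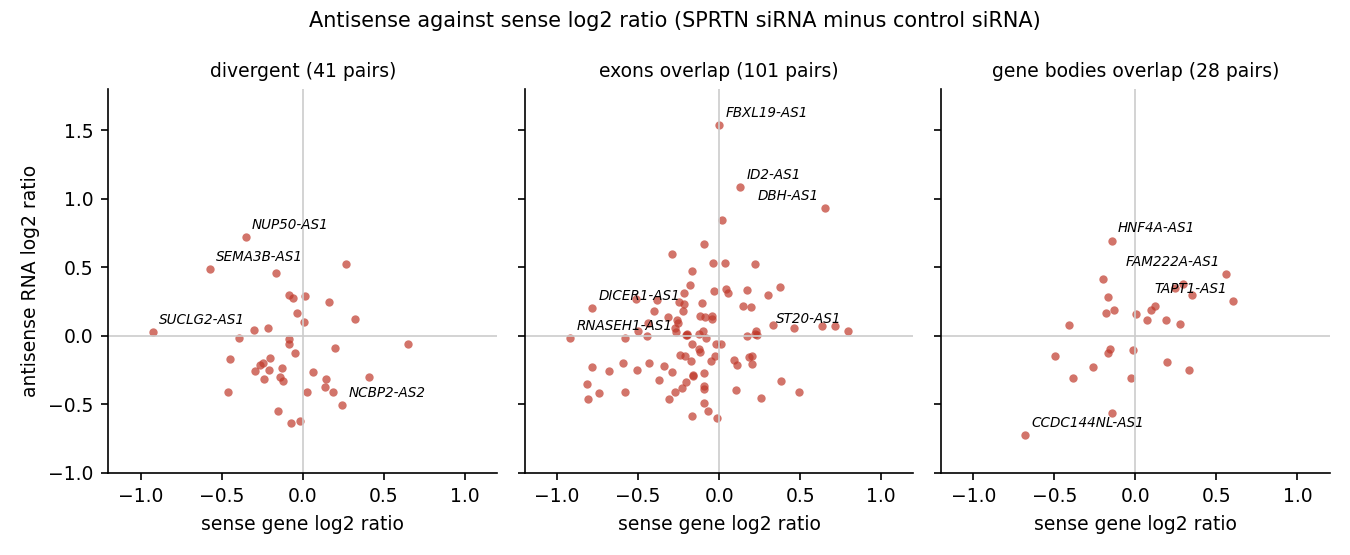
Log2 ratio of FPKM + 1 (SPRTN siRNA minus control siRNA) of each antisense RNA (vertical) against that of its sense gene (horizontal), in 1 panel per arrangement, for pairs with both at a mean of 1 FPKM or more. Points form clouds around 0 in the divergent (41 pairs) and exon-overlap (101 pairs) panels, and FBXL19-AS1 lies straight above 0 on the sense axis.

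Where a sense gene has a pair of antisense RNAs, the RNAs did not always move alike. DLGAP1-AS1 had a log2 ratio of -0.30 and DLGAP1-AS2, at 3.72 FPKM with SPRTN siRNA and 3.05 FPKM in the control, one of 0.22. PTOV1-AS1 stood at 0.01 and PTOV1-AS2 at 0.52, and TSPEAR-AS1 at 0.03 and TSPEAR-AS2 at 0.55. PAXIP1-AS1 and PAXIP1-AS2 lay closer, at -0.02 and 0.14.

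Grouped by the role of the sense gene, the antisense RNAs spread widely within most groups. Those beside DNA repair and replication genes were an exception, with log2 ratios from -0.02 to 0.18. No group held more than 1 RNA past 2-fold on log2(FPKM + 1) (all genes 1.51% higher). The groups were drawn up after the values were seen and are given as description, and their counts stand beside 56.6% of all genes below 0. Of 9 antisense RNAs beside liver and developmental transcription factors, 6 were above 0, with a median of 0.14, while 6 of the 9 sense genes were below 0. HNF4A-AS1 led this group, GATA2-AS1 followed at 15.5 FPKM with SPRTN siRNA and 12.5 FPKM in the control, and CEBPA-AS1, beside a factor of the mature hepatocyte, had 2.81 FPKM with SPRTN siRNA and 3.74 FPKM in the control. Beside 16 zinc finger and other DNA-binding factor genes, 11 antisense RNAs were above 0, with ZNF529-AS1 at 3.40 FPKM with SPRTN siRNA and 2.04 FPKM in the control. Of the 14 measured sense genes there, 11 were below 0.

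Beside DNA repair and replication genes the 5 sense genes were all below 0 (median -0.40), also after centring on the median gene, while the 6 antisense RNAs lay within 0.2 of 0. MCM3AP, an mRNA export factor gene, had 26.7 FPKM with SPRTN siRNA and 36.6 FPKM in the control, and MCM3AP-AS1 had 2.78 FPKM with SPRTN siRNA and 2.54 FPKM in the control. For genes of RNA binding, RNA export and ribosome assembly 11 of 12 sense genes were below 0 (median -0.22) and 7 of 12 antisense RNAs were. Chromatin regulators gave 6 of 7 sense genes and 5 of 8 antisense RNAs below 0. In that group KMT2E, a reader of methylated histones, and KMT2E-AS1 went the same way, at 10.3 FPKM with SPRTN siRNA and 17.9 FPKM in the control for the gene and 3.71 FPKM with SPRTN siRNA and 5.30 FPKM in the control for the RNA.

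Among 13 mitochondrial enzyme and subunit genes the sense genes ran from -0.92 to 0.38 and their antisense RNAs from -0.33 to 0.35. Of 13 RNAs beside ubiquitin and proteasome genes, 9 were below 0, with a median of -0.19, and FBXL19-AS1, which is also counted with the chromatin regulators, was the exception in size. USP2, a deubiquitinase gene, had 13.9 FPKM with SPRTN siRNA and 10.2 FPKM in the control, while USP2-AS1 had 1.441 FPKM with SPRTN siRNA and 2.005 FPKM in the control.

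**Figure D5:**
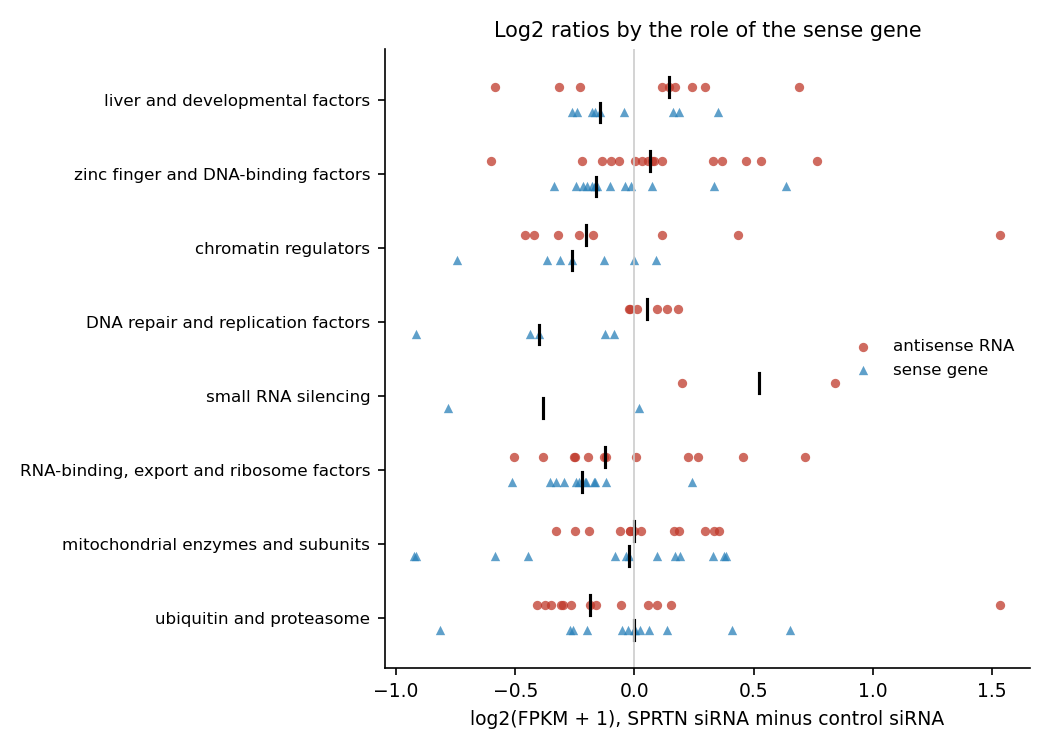
Log2 ratios of FPKM + 1 (SPRTN siRNA minus control siRNA) of antisense RNAs (red circles) and of their sense genes at 1 FPKM or more (blue triangles), by the role of the sense gene, with black bars at the medians. In the DNA repair group the antisense RNAs lie close to 0 and the sense genes to the left, and FBXL19-AS1, at 1.54, appears in both groups that list its sense gene.

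Pairing of guide positions 2 to 8 alone can let an siRNA act on a transcript in the manner of a microRNA, so the site CTGGTTA was looked up in the annotated transcripts. Of the 199 annotated antisense RNAs, 25 (12.6%) held it, against 8.41% of 345 long intergenic RNA genes. The intergenic genes include 26 of the antisense RNAs. The 25 had a median log2 ratio of -0.12, with 14 below 0, and the 174 without it 0.01. The RNAs that held it were longer, with a median transcript length of 1251 bases against 976. The site of the siRNA in SPRTN (19 bases at chr1:231353422-231353440, plus strand) is shown with the sites of 5 of the 6 lowest of these RNAs, with the 7 bases in capitals, from GENCODE 29 transcripts of GRCh38, at chr3:142969509-142969529 for PAQR9-AS1, chr14:23939538-23939558 (minus strand) for DHRS4-AS1, chr5:38710442-38710462 (minus strand) for OSMR-AS1, chr7:96968217-96968237 (minus strand) for DLX6-AS1 and chr11:119499811-119499831 for USP2-AS1.
SPRTN: gtcaggaagttCTGGTTAa
PAQR9-AS1: ataatatCTGGTTAgaaagtc
DHRS4-AS1: tgtccttCTGGTTAcatatgt
OSMR-AS1: agatgttCTGGTTAatatgtg
DLX6-AS1: gacattgCTGGTTAtttgtag
USP2-AS1: gtctggaCTGGTTAcctgggc

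PAQR9-AS1 was the lowest of the RNAs with the site, at 1.501 FPKM with SPRTN siRNA and 2.45 FPKM in the control (1.63-fold lower, 1.19 to 2.26). DHRS4-AS1, the most abundant of the 6, had 17.1 FPKM with SPRTN siRNA and 22.3 FPKM in the control (1.31-fold lower, 1.23 to 1.39). OTUD6B-AS1 and DLX6-AS1 had log2 ratios of -0.37 and -0.31, OSMR-AS1 -0.31 and USP2-AS1 -0.30. The site is in 1 of 15 transcripts of PAQR9-AS1 and in 5 of 8 of DLX6-AS1, and the FPKM sums over all of a gene's transcripts. None of the 8 lowest antisense RNAs held it. Of 169 sense genes with a 3' untranslated region to search, 25 (14.8%) held the site there, against 10.5% of 11134 genes, with a median log2 ratio of -0.13 against -0.10 for those without. Among the 14 of these searched sense genes at or below -0.5, 4 held it, DICER1 and PAQR9 among them. SUCLG2 and RNASEH1, which were lower still, did not. Whether the guide acted on any of these genes was not tested. CCDC144NL, at -0.68, was not among those searched.

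Factors known to remove or end antisense and promoter RNAs were examined as a list of 47 genes, all measured. Their median log2 ratio was -0.17 against -0.05 for all genes, with 33 below 0 (all genes 56.6%), 14 above and 0 past 2-fold in either direction, where all genes gave 1.51% higher and 0.788% lower. XRN2, the exonuclease that ends transcription, was lowest, at 34.6 FPKM with SPRTN siRNA and 58.8 FPKM in the control (log2 ratio -0.75). INTS6, a subunit of the Integrator complex, followed at 14.98 FPKM with SPRTN siRNA and 20.21 FPKM in the control. The 3' untranslated region of INTS6 holds the guide site and that of XRN2 does not. Highest were EXOSC4, a ring subunit of the exosome, at 30.9 FPKM with SPRTN siRNA and 20.5 FPKM in the control, and MPHOSPH6, an exosome cofactor gene, at 60.7 FPKM with SPRTN siRNA and 42.9 FPKM in the control. NCBP2 is on this list as well as among the sense genes.

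The authors' deposited table calls 5 of the 200 antisense RNAs, all higher, where all genes at 1 FPKM or more give 2.87% higher and 1.76% lower. In the authors' deposited table the log2 fold changes, made without a pseudocount, are 1.86 for FBXL19-AS1, 1.64 for ID2-AS1, 1.42 for ZFPM2-AS1, 1.23 for TNRC6C-AS1 and 1.13 for DBH-AS1. Of the 170 sense genes at 1 FPKM or more the authors' deposited table calls 1, ST20. It calls 6 of the 23 below that level, where no share over all genes was computed, so this count says nothing particular of sense genes. CHKB, among these 6, had 24 reads with SPRTN siRNA and 6 in the control. At the edge of the level rule, NCK1-AS1, CDC37L1-AS1 and YTHDF3-AS1 were just inside, at mean levels of 1.03, 1.01 and 1.01 FPKM over the 2 libraries. Just outside it were UCKL1-AS1, NFYC-AS1 and INTS6-AS1, at mean levels of 0.990, 0.965 and 0.962 FPKM. These 6 RNAs had log2 ratios between -0.30 and 0.20, so the rule's edge took in and left out small differences alike.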

How the data were processed

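RNA of HepG2 cells was sequenced in 1 library per group. The authors deposited FPKM per gene, and a second deposited table of length-scaled coverage, a signal equal to the FPKM times a constant of each library. That table also holds the authors' log2 fold change, p-value, adjusted p-value and call, with no method named in the labels. Build GRCh38.p13 and edgeR are named in the submitters' processing notes, with no role or version. Aligner, counter, annotation release and strand use were not given in the sources used here. Row means are named in the FPKM table's title, and whether cultures were pooled in a column is not known. The deposited columns were matched to the groups by their short names.

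Log2 ratios are log2(FPKM + 1) with SPRTN siRNA minus control, among genes at a mean of at least 1 FPKM. The pseudocount understates the change of low genes, and printed folds are plain ratios. Reads were recovered as FPKM times the mean GENCODE release 29 transcript length over the value of 1 read. Among values of at most 20 reads, 93.3% with SPRTN siRNA and 93.9% with control siRNA came within 0.05 of whole, and 59.8% and 51.8% of the antisense values did. Intervals are exact (Clopper-Pearson, 95%) and treat these reads as split between the libraries. The code was tested on simulated data. Each sense gene is the one named before -AS; GENCODE 29 gave arrangement, exons and types for 199 of 200 RNAs. Names PROX1-AS1, TP73-AS1 and RAET1E-AS1 also stand on a second gene below the level rule.

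The antisense RNAs and lists were chosen with earlier results of these data known. Antisense RNAs named are the 8 highest and 8 lowest, the 6 most abundant, the 4 widest pairs each way, the 4 highest antisense to sense ratios, RNAs with known roles, up to 6 with a guide site and 3 on each side of the level rule. Other genes were named after their values were seen. Some genes that the rule takes are left unreported, though they stay in the counts and medians. Python 3.11.15, pandas 2.3.3, numpy 2.4.6, SciPy 1.17.1 and matplotlib 3.10.9 were used.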

Additional observations from a re-analysis of the deposited data

How the results depend on the processing

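No paired analysis was possible because each group has 1 library. No value here has a replicate check, and depth limits the scarce antisense RNAs most, whose intervals are widest. The count of antisense RNAs at least 2-fold higher was 2 of 200 with median of ratios scaling and when centred on the median gene. All genes gave 1.45% and 1.67% there. With no filter on low values it was 2 of 748. It was 5 of 200 with a pseudocount of 0.1 FPKM and 5 of 199 with recovered reads, where all genes gave 2.79% and 2.95%. DBH-AS1, TNRC6C-AS1 and ZFPM2-AS1 joined under both. The count was 1 of 59 at a mean of at least 5 FPKM. It was 0 of 86 without pairs whose exons overlap, since FBXL19-AS1 and ID2-AS1 are such pairs. With a 1.5-fold size rule 9 of 200 were higher and 5 lower, where all genes gave 5.04% and 5.62%. The median log2 ratio of the antisense RNAs was 0.059 when centred. Sense genes at least 2-fold higher numbered 1 of 170 with a pseudocount of 0.1 FPKM and 1 of 170 with recovered reads. All genes gave 2.79% and 2.95% there. With no filter 2 of 692 sense genes were higher and 3 lower, and the share over all genes was not computed for that setting. At 1.5-fold 6 of 170 were higher and 10 lower, where all genes gave 5.04% and 5.62%. Among 122 RNAs with under 10% of exon bases in another gene, an alternative chosen after seeing the data, 2 were higher and 0 lower. Of 85 named genes under 4 settings each, 280 values kept within their counting interval, 60 moved beyond it and 5 changed sign close to 0. A reversal was counted only for genes at least 2-fold different on log2(FPKM + 1), here FBXL19-AS1 and ID2-AS1. Neither was reversed, which says nothing of the other named genes.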
